A study of Homo sapiens with 4 samples.

Results

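The SMC1-bound contacts of the NR0B1 locus were described in A673 cells, an Ewing sarcoma line, with and without STAG2. All anchor pairs with an anchor overlapping chromosome X positions 30318000 to 30331000 (hg19) were taken, which gave 45 of the 1125468 anchor pairs in the 4 libraries. Pairs with anchor midpoints under 20 kb apart were called short and the others long, and 1 of the 45 pairs was short. The groups were 2 STAG2-null libraries, from single-cell clones edited with Cas9, and 2 wild-type (WT) libraries of A673 cells. The labels name no clone or culture per library, so errors are those between libraries, which may be technical, and clone and genotype cannot be told apart. HiChIP does not measure STAG2 itself, so the genotypes are as labelled. HiChIP joins DNA ends that are near each other in fixed nuclei and keeps those that an antibody pulls down. Each read pair that links 2 anchors is counted as a paired-end tag (PET).

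NR0B1, also called DAX1, encodes an orphan nuclear receptor that acts mainly as a repressor of transcription. In Ewing sarcoma it is a direct target of the fusion factor EWS-FLI1, which binds a run of GGAA repeats upstream of the gene and activates it. SMC1 is a core subunit of cohesin, the ring complex that extrudes chromatin loops, and STAG2 is one of its exchangeable subunits. CTCF is the DNA-binding protein at which many cohesin loops stop.

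The promoter sequence is shown because FLI1 and CTCF are flagged at the anchor that holds it. The 250 bases before the start of NR0B1 are at chrX:30309391-30309640 on the minus strand of GRCh38.p14, from RefSeq, so these coordinates are on another build than those of the contacts. Capitals mark GGAA, the core letters of ETS factor sites, and its reverse complement TTCC.

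NR0B1 promoter: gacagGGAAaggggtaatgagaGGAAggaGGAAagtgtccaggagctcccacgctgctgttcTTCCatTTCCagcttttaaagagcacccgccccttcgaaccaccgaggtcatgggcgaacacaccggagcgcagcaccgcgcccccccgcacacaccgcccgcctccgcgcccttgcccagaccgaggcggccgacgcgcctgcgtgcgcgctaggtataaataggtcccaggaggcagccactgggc

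GGAA occurred 5 times on both strands together, 3 on the strand of the gene and 2 on the other. Of 27305 RefSeq promoters cut to the same length, 92.8% held GGAA at least once and 18.8% at least 5 times. The tandem GGAAGGAA, which overlaps GGAA, occurred 0 times here and in 2.99% of those promoters. These counts describe the letters of this window only, and the run of GGAA repeats named above was not located.

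The locus held 2 anchors. The promoter anchor, positions 30325175 to 30330172, is the anchor at which the authors' deposited table of differential loops places the NR0B1 start, and that table flags it for CTCF, FLI1, H3K27ac and promoter. The other anchor, positions 30318841 to 30324203, is flagged for none of the 4. It lies 972 bp away on the side of lower coordinates. NR0B1 is transcribed toward lower coordinates, so it is called the downstream anchor here. A further entry, containFLIPeak, is false for the loop between the anchors, although the promoter anchor is flagged for FLI1. The same holds for 71 of the 169 loops with an anchor flagged for FLI1. Protein-coding neighbours of NR0B1 in the RefSeq order are MAGEB1, of a family of cancer-testis antigens, on the lower side and TASL, listed as CXorf21 in older annotation, on the higher side. None of the partner anchors described below carries a gene name in the deposited tables.

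Over the 4 libraries the locus held 190 PETs, against a median of 43 PETs in 13-kb windows of all chromosomes and of 15 PETs in those of chromosome X. It stood at or above 87.1% of the 74274 windows with a PET, and at or above 99.2% of the 2151 on chromosome X. The STAG2-null libraries held 682724 and 698002 PETs in all, and the WT libraries 661881 and 765017.

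The locus as a whole held 44 and 68 PETs in the STAG2-null libraries, against 40 and 38 PETs in the WT libraries. This was 80.9 ± 23.3 PETs per 1000000 PETs of the library (PPM) in the STAG2-null libraries and 55.1 ± 7.61 in the WT libraries (SD, n = 2 each). The groups did not overlap, but STAG2-null 1 stood close to WT 1, at 64.4 against 60.4 PPM. How many other windows separate in this way was not counted. The change was 0.57 ± 0.23 on the log2 scale (SE) and did not pass the threshold of 0.05 (edgeR's quasi-likelihood test over 55552 windows of 13 kb, Benjamini-Hochberg adjusted p = 0.225), in a comparison that called 2.01% of windows. Without STAG2-null 2 it was 0.24.

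The short pair joined the promoter anchor to the downstream anchor, 6.15 kb between midpoints, and carried most of the difference. It held 11 and 24 PETs in the STAG2-null libraries, against 6 and 7 PETs in the WT libraries. Both STAG2-null libraries stood above both WT libraries. How often other short pairs separate in this way was not counted. The WT libraries were nearly equal once scaled, at 9.07 and 9.15 PPM. On so few PETs, the 95% interval for the ratio of WT 2 to WT 1 was wide, 0.290 to 3.64. The means were 25.2 ± 12.9 PPM in the STAG2-null libraries and 9.11 ± 0.0601 in the WT libraries (SD, n = 2 each). The ratio of the summed PETs was 2.78, with an exact 95% binomial interval of 1.44 to 5.73 that covers counting error only. STAG2-null 2 held 2.13 times as much as STAG2-null 1 (95% interval 1.01 to 4.83), and STAG2-null 1 held 1.76 times as much as WT 2 (0.623 to 5.36), an interval that includes equality.

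Tested among 11872 anchor pairs with at least 20 PETs, the short pair stood at 1.36 ± 0.47 on the log2 scale (SE) and did not pass the threshold (adjusted p = 0.248 in edgeR, 0.123 to 0.996 over the other settings, DESeq2 included). That comparison called 0.194% of pairs. Short pairs had a median change of 0.088 and long pairs one of -0.14. Among the 6776 short pairs tested, 176 had a larger change than NR0B1, which is 2.60%. Set against other short contacts alone, by windows of 13 kb, the change was 1.33 ± 0.47 (adjusted p = 0.173 in edgeR, with 0.566% of 16071 windows called). With the boundary at 50 kb in place of 20 kb, which adds the pairs of 20 to 50 kb, it was 0.58. Without STAG2-null 2 the pair stood at 0.75, and without STAG2-null 1 at 1.77, with neither past the threshold.

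The authors' deposited table of 650 differential loops does list this pair. That table gives it a log2 fold change of -1.40, where a negative sign marks loops stronger in the mutant, as in all 350 loops so marked. Its p-value there is 0.00269 and its p-value after independent hypothesis weighting is 0.0490, and it ranks 195 of 650 by that adjusted value in the authors' deposited table. The same table gives NR0B1 the entry UP in a status column for promoter genes, shared by 10 loops, while 25 loops have DN. What the status describes is not stated in the file.

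Of the 650 loops in the authors' deposited table, 42 had a promoter anchor flagged for FLI1, and 21 of these were stronger in the mutant. Among the 13 of them that were short, NR0B1 included, 11 were stronger in the mutant, against 232 of all 317 short loops in the table. All 7 chromosome X loops in that table were stronger in the mutant. In the authors' deposited table of 22680 high-confidence loops the short pair was the single entry at the locus, and the nearest other entry on chromosome X ended 5155 kb away, on the lower side. At 48 PETs over the 4 libraries, the pair stood at or above 97.2% of the 10311 pairs between 5 and 7.5 kb, whose median was 10 PETs.

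**Figure D1:**
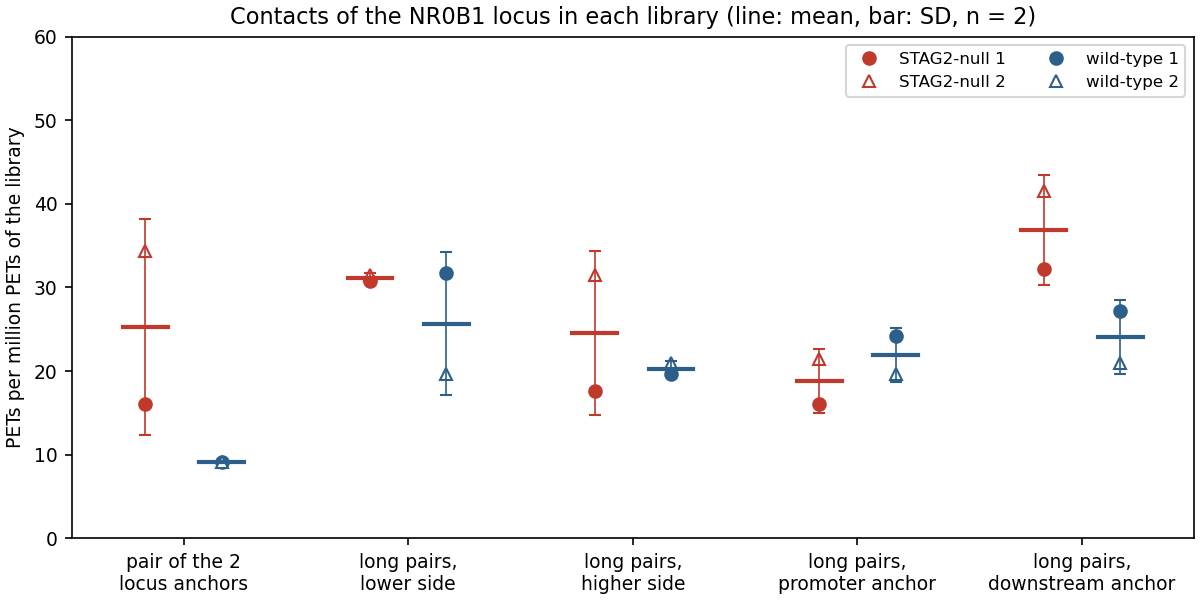
PPM of the NR0B1 locus in each library, for the short pair of the 2 locus anchors and for the long pairs summed by side and by locus anchor, with STAG2-null left of wild-type. Points are libraries, lines are means and bars are SDs of 2 libraries. The short pair and the long pairs of the downstream anchor are the columns where the groups do not overlap. How often such sums separate over other loci was not counted.

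Summed over all its pairs, the downstream anchor held 33 and 53 PETs in the STAG2-null libraries, against 24 and 23 PETs in the WT libraries. The groups did not overlap, but how many other anchors separate in this way was not counted. The change was 0.91 ± 0.28 (SE, log2) and did not pass the threshold (adjusted p = 0.0849 in edgeR over 60425 anchors), where 0.875% of anchors were called. The other edgeR settings gave an adjusted p of 0.0578 to 0.665, and DESeq2 gave none for this anchor. Without STAG2-null 2 the change was 0.54.

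The promoter anchor held 22 and 39 PETs in the STAG2-null libraries, against 22 and 22 PETs in the WT libraries, so STAG2-null 1 stood within the WT libraries. Its change was 0.51 ± 0.30 (adjusted p = 0.516 in edgeR) and 0.06 without STAG2-null 2. With the short pair set aside, the promoter anchor held 11 and 15 PETs in the STAG2-null libraries and 16 and 15 in the WT libraries. The downstream anchor then held 22 and 29 PETs in the STAG2-null libraries and 18 and 16 in the WT libraries. Apart from the short pair, the summed ratio was thus 0.867 at the promoter anchor (exact 95% binomial interval 0.494 to 1.51) and 1.55 at the downstream anchor (0.985 to 2.47). The long PETs of the downstream anchor did not overlap between the groups, while those of the promoter anchor did. How often the long PETs of other anchors separate was not counted. The difference between the anchors was not tested.

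**Figure D2:**
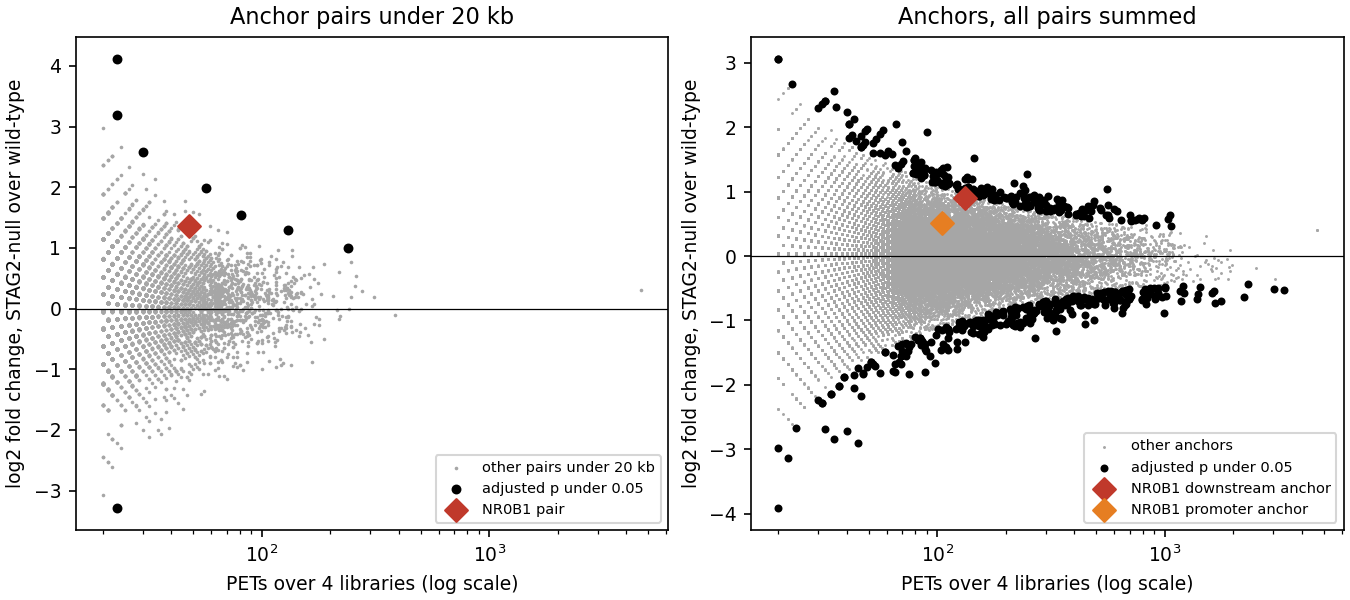
Log2 fold change of STAG2-null over wild-type against PETs over 4 libraries (log axis), for anchor pairs under 20 kb on the left and for anchors with all pairs summed on the right. Grey points are all features tested and black points those past an adjusted p of 0.05. The NR0B1 pair at 1.36 and the downstream anchor at 0.91 lie near the edge of the grey points, the promoter anchor at 0.51 well inside.

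The 44 long pairs reached 27 partner anchors between 22.9 kb and 1.95 Mb away, 14 at lower and 13 at higher coordinates. Of these partners, 17 had PETs with both locus anchors, 4 with the promoter anchor alone and 6 with the downstream anchor alone. The pairs were thin. Of the 44, 15 rested on 1 PET and 32 on at most 4, the most in any library was 5, and none reached the 20 PETs needed for the test. Together they held 33 and 44 PETs in the STAG2-null libraries, against 34 and 31 PETs in the WT libraries. The groups overlapped, and the change was 0.31 ± 0.26 (adjusted p = 0.671 in edgeR, with 0.863% of 52982 windows called). It was 0.10 with chromosome X scaled to its own total and 0.52 with the boundary at 50 kb. It was 0.49 without STAG2-null 1, 0.10 without STAG2-null 2, 0.48 without WT 1 and 0.13 without WT 2.

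PETs in the STAG2-null libraries alone were found for 11 long pairs (25.0%) and PETs in the WT libraries alone for 9 (20.5%), against 36.4% and 39.2% of the 1069480 long pairs of all chromosomes. Both STAG2-null libraries were above both WT libraries in 3 of the 44 pairs and below them in 1, against 3.7% and 4.35% of all long pairs. Among the 12 long pairs with at least 5 PETs these numbers were 2 and 0, against 10.5% and 12.7%. With 44 pairs, these counts are given as a description.

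Distances of partners are given from the promoter anchor, and PETs of both locus anchors are summed. On the lower side the nearest partners held the most PETs. The anchor at 29.0 kb had 1 and 5 PETs in the STAG2-null libraries and 4 and 5 in the WT libraries. The anchor at 33.5 kb, positions 30293028 to 30295288, had 4 and 5 PETs in the STAG2-null libraries and 8 and 3 in the WT libraries. The 4 pairs behind these partners summed to 5 and 10 PETs in the STAG2-null libraries, against 12 and 8 in the WT libraries, a ratio of 0.775 (exact 95% binomial interval 0.369 to 1.59). They included the 3 strongest long pairs of the locus, each with 10 PETs in all.

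Next came partners at 62.7 kb, with 3 and 2 PETs in the STAG2-null libraries and 3 and 0 in the WT libraries, and at 78.5 kb, with 4 and 1 PETs in the STAG2-null libraries and 1 and 3 in the WT libraries. A partner at 113 kb had 0 and 1 PETs in the STAG2-null libraries and 3 and 0 in the WT libraries. None of these partners separated the groups.

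Of the 27 partners, 3 had both STAG2-null libraries above both WT libraries and 0 had them below. How often such partner sums separate at other loci was not counted. The partner at 168 kb, positions 30158124 to 30161035, was 1 of the 3. It held 4 and 4 PETs in the STAG2-null libraries, against 1 and 0 PETs in the WT libraries, a ratio of 8.27 with an exact 95% binomial interval of 1.11 to 367. With the promoter anchor alone it held 2 and 3 PETs in the STAG2-null libraries and 0 and 0 in the WT libraries, where the exact 95% lower limit of the ratio was 0.947, below equality. It was singled out after its values were seen, with 9 PETs in all.

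Just nearer to the locus, the partner at 156 kb had 1 PET in STAG2-null 1 and none elsewhere. Farther out, partners at 382, 406 and 468 kb had 0 and 1, 1 and 1, and 1 and 1 PETs in the STAG2-null libraries, against 0 and 0, 0 and 2, and 1 and 0 in the WT libraries. The partner at 607 kb also separated the groups, but only on 1 PET in each STAG2-null library and 0 in both WT libraries. That at 692 kb had 1 PET, in STAG2-null 1. The partners at 831 and 1096 kb had 1 PET each, both in WT 2. The contacts from 382 kb outward were single PETs for the most part.

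On the higher side the nearest anchor lay 105 kb from the promoter anchor. It had 1 and 0 PETs in the STAG2-null libraries and 1 and 2 in the WT libraries. Contacts on this side gathered at 6 partners between positions 30501741 and 30540118, 179 to 218 kb away by pair. These 6 partners together held 7 and 18 PETs in the STAG2-null libraries, against 8 and 12 PETs in the WT libraries, so the groups overlapped. By promoter anchor the sums were 0 and 6 PETs in the STAG2-null libraries and 4 and 6 in the WT libraries. By downstream anchor they were 7 and 12 PETs in the STAG2-null libraries and 4 and 6 in the WT libraries, where the groups did not overlap. The ratio there was 1.96 (exact 95% binomial interval 0.869 to 4.73), an interval that includes equality. How often sums over part of a locus separate elsewhere was not counted.

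Within that group, the partner at 191 kb had the most PETs, 2 and 6 in the STAG2-null libraries and 1 and 3 in the WT libraries. The partner at 179 kb had 2 and 2 PETs in the STAG2-null libraries and 4 and 2 in the WT libraries, and the one at 195 kb had 0 and 4 in the STAG2-null libraries and 1 and 3 in the WT libraries. The partner at 204 kb had 2 and 3 PETs in the STAG2-null libraries and 0 and 2 in the WT libraries. The remaining members, at 175 and 212 kb, had 1 and 1 PETs and 0 and 2 PETs in the STAG2-null libraries, against 0 and 1 PETs and 2 and 1 PETs in the WT libraries. STAG2-null 2 was the library that stood high at several of these partners.

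Beyond this group, the partner at 260 kb held 3 and 2 PETs in the STAG2-null libraries, against 1 and 0 in the WT libraries, a ratio of 5.17 with an exact 95% binomial interval of 0.578 to 244. The partners at 344, 404 and 426 kb had 0 and 0, 0 and 1, and 1 and 0 PETs in the STAG2-null libraries, against 0 and 1, 1 and 1, and 0 and 0 in the WT libraries. The partner at 712 kb had 0 and 0 PETs in the STAG2-null libraries and 2 and 0 in the WT libraries, and that at 1944 kb had 1 PET, in STAG2-null 2. Apart from the partner at 260 kb, none of these separated the groups.

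**Figure D3:**
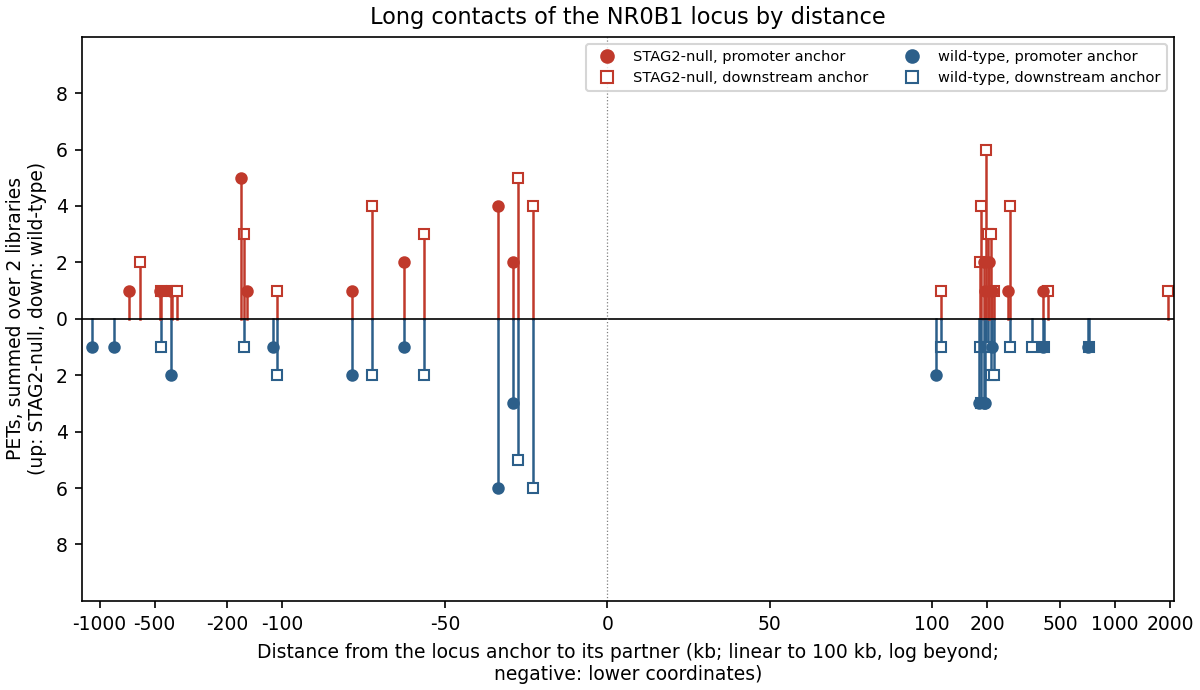
Long contacts of the NR0B1 locus, as PETs summed over the 2 libraries of a genotype, with STAG2-null upward and wild-type downward, against the distance in kb from the locus anchor to its partner (linear to 100 kb, log beyond, negative for lower coordinates). Filled circles are pairs of the promoter anchor and open squares pairs of the downstream anchor. Contacts lie at 23 to 34 kb on the lower side and near 200 kb on the higher side, in both genotypes.

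By side, long pairs summed to 21 and 22 PETs in the STAG2-null libraries and 21 and 15 in the WT libraries toward lower coordinates, and to 12 and 22 PETs in the STAG2-null libraries and 13 and 16 in the WT libraries toward higher coordinates. The groups overlapped on both sides. The changes were 0.32 ± 0.33 (adjusted p = 0.778 in edgeR, 0.0864% of windows called) and 0.30 ± 0.38 (adjusted p = 0.833 in edgeR, 0.0374% called). The sign turned without WT 2 on the lower side, to -0.017, and without STAG2-null 2 on the higher side, to -0.20.

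The short pair made up a larger share of the locus contacts in both STAG2-null libraries than in either WT library. It made up 25.0% of the locus PETs in STAG2-null 1 (95% Wilson interval 14.6% to 39.4%) and 35.3% in STAG2-null 2 (25.0% to 47.2%). It made up 15.0% in WT 1 (7.06% to 29.1%) and 18.4% in WT 2 (9.22% to 33.4%). The means were 30.1 ± 7.28% in the STAG2-null libraries and 16.7 ± 2.42% in the WT libraries (SD, n = 2 each). The groups did not overlap, and an exact permutation test, two-sided, gave p = 0.33, the smallest that 2 against 2 libraries allow. How often this share separates at other loci was not counted. Over all pairs of the series, contacts of 5 to 20 kb made up 21.5% of PETs in the STAG2-null libraries and 19.6% in the WT libraries.

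Contacts of 20 to 50 kb made up 13.4% of the locus PETs in the STAG2-null libraries and 25.6% in the WT libraries, against 14.5% and 14.9% over all pairs. The groups overlapped there in PETs, at 5 and 10 in the STAG2-null libraries and 12 and 8 in the WT libraries. As shares of the locus PETs they did not overlap. The shares were 5 of 44 and 10 of 68 in the STAG2-null libraries, against 12 of 40 and 8 of 38 in the WT libraries. This share was not tested, and how often it separates at other loci was not counted. It is not independent of the share of the short pair, since a larger share of that pair lowers the others. Over both genotypes, 24.7% of the locus PETs spanned 100 to 200 kb, against 14.7% over all pairs, and 4.21% spanned over 500 kb, against 17.7%. Anchors were spaced unevenly around the locus. Within 250 kb of the promoter anchor there were 8 anchors on the lower side, of which 7 had a PET with the locus, and 7 on the higher side, all with one.

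Chromosome X as a whole held 0.830 ± 0.0247% of PETs in the STAG2-null libraries and 0.729 ± 0.0156% in the WT libraries (SD, n = 2 each), a log2 ratio of 0.18. In the 10 Mb window of the locus, sparse pairs (at most 4 PETs) held 474 and 449 PETs in the STAG2-null libraries. They held 378 and 418 PETs in the WT libraries, a log2 ratio of 0.26 after scaling to library totals. With chromosome X scaled to its own total, the locus stood at 0.38, the short pair at 1.27, the downstream anchor at 0.73 and the promoter anchor at 0.33. The 41 tested pairs of chromosome X had a median change of 0.42, and the short pair was the fifth highest of them.

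**Figure D4:**
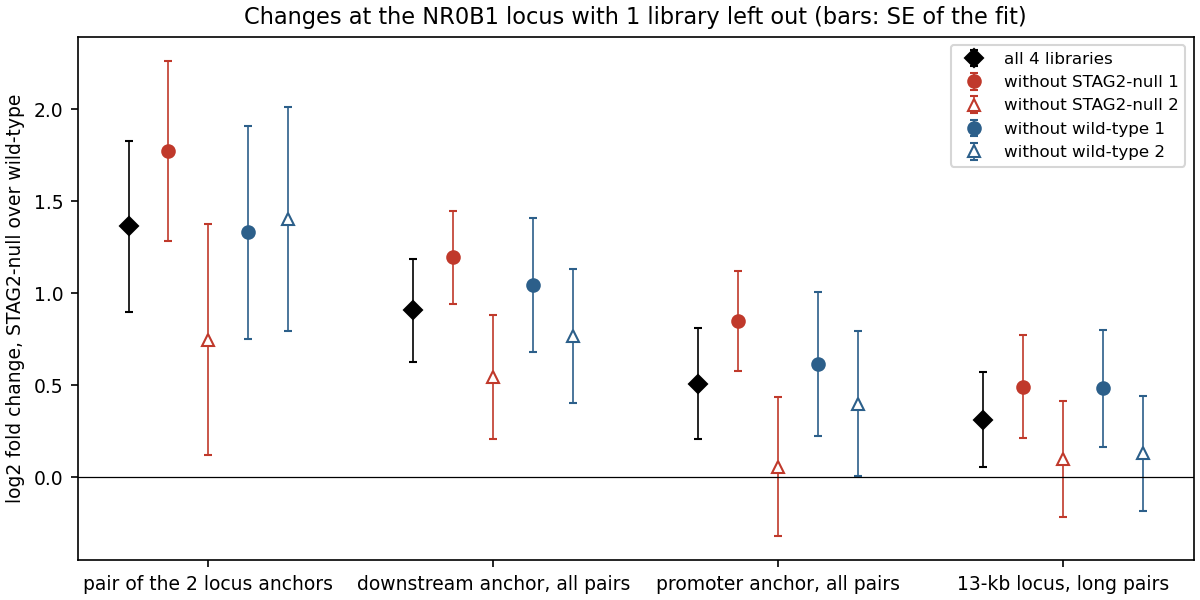
Log2 fold changes of STAG2-null over wild-type at the NR0B1 locus with all 4 libraries and with each left out in turn. Bars are standard errors of the fit. All values without STAG2-null 2 are the lowest of their column, from 0.75 for the short pair to 0.06 for the promoter anchor.

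Other genes that EWS-FLI1 is reported to activate were compared by their promoter anchors. Of a list of 40 such genes, 4 could be placed, NR0B1 among them, and 1 was higher and 0 lower past the threshold. CAV1, which encodes the main protein of caveolae, was the gene that passed, with 293 and 342 PETs in the STAG2-null libraries against 200 and 218 in the WT libraries (0.64 ± 0.13, adjusted p = 0.00241 in edgeR). It no longer passed with chromosomes or 10 Mb windows scaled to their own totals, or with any 1 library left out, which leaves 1 library in a group. Calls fell in general under these scalings, from 225 anchors called higher to 60 with chromosomes scaled and 7 with windows scaled. UGT3A2, a glycosyltransferase gene, had 49 and 62 PETs in the STAG2-null libraries against 32 and 42 in the WT libraries (0.62 ± 0.24, adjusted p = 0.215 in edgeR). ETV6, which encodes an ETS family repressor, had 100 and 116 PETs in the STAG2-null libraries against 93 and 89 in the WT libraries (0.28 ± 0.17, adjusted p = 0.524 in edgeR). The list median was 0.57, beside 0.0013 for all 60425 anchors, of which 0.372% were called higher and 0.503% lower. A gene could be placed only through the differential loops that the authors' deposited table names, so the placed genes had been picked for change. Of all 251 genes placed in this way, 20 were higher and 36 lower past the threshold. The shares over all anchors are therefore not a like background for the list.

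Among 51 placed genes with a similar number of PETs, the 3 whose promoter anchors lay nearest to that of NR0B1 over the 4 libraries were ZNF112, PSMB5 and CBFB, at distances of 0.182, 0.240 and 0.362 between centred log2 values. ZNF112, a zinc finger gene, had 31 and 52 PETs in the STAG2-null libraries and 34 and 34 in the WT libraries. PSMB5, a proteasome subunit gene, had 47 and 69 PETs in the STAG2-null libraries and 38 and 40 in the WT libraries. CBFB, which encodes a partner of RUNX factors, had 33 and 45 PETs in the STAG2-null libraries and 34 and 27 in the WT libraries. All 3 had their highest count in STAG2-null 2, as NR0B1 did, which follows from picking them by that pattern.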

How the data were processed

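Contacts held by SMC1 were measured in 4 HiChIP libraries, 2 of each genotype. The authors deposited a whole-number count of PETs and a p-value for each anchor pair and library. The submitters' processing notes name hg19 and HiC-Pro, with no version. The authors' deposited list of differential loops holds log2 fold changes, p-values and loop widths, per the file headers. Its count columns are headed by a genotype and a further tag, which does not say which library. They were not used for values per library.

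Counts were tested with edgeR 4.0.16 in R 4.3.3 (quasi-likelihood, genotype alone, library sizes over all pairs, TMM factors over the features tested, at least 20 PETs per feature, Benjamini-Hochberg over all features). Features were pairs, anchors, and 13-kb windows laid so that the locus was 1 of them. The edgeR steps were tested on simulated data. Alternatives were DESeq2 1.42.0, library totals, other filters and scalings, a block for replicate number and each library left out. Sequence counts, shares and intervals were computed in Python 3.11.15 with scipy 1.17.1. Depth was 661881 to 765017 PETs per library. PPM values are PETs over the library total, and intervals, Wilson for shares and exact for ratios, cover counting error only. The share of features whose groups did not overlap was counted for long pairs only, not for short pairs, windows or anchors.

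Named partners were all partners of the locus, and named genes were placed list members and the 3 nearest patterns. The members and lists were chosen with earlier results of these data known. One planned result on a second gene list is not reported here.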

Additional observations from a re-analysis of the deposited data

How the results depend on the processing

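No other setting brought a test at the locus past the threshold (DESeq2 gave no adjusted p for the locus total, the long pairs and either anchor), and the locus total, the short pair, the long pairs and both anchors kept their direction under every setting run. Leaving out 1 library gave 0.24 to 0.82 for the locus total, 0.72 to 1.73 for the short contacts by window, 0.75 to 1.77 for the short pair, 0.54 to 1.19 for the downstream anchor, 0.06 to 0.85 for the promoter anchor and 0.10 to 0.49 for the long pairs. It gave -0.20 to 0.67 for long pairs toward higher coordinates and -0.017 to 0.69 toward lower ones, the negative values being those without STAG2-null 2 and without wild-type 2, whose cause was not tested. The long share, lower in STAG2-null cells by 13.4 percentage points, ran from -18.6 to -8.29 points and was -0.945 with the boundary at 50 kb, which moves the 4 pairs of 20 to 50 kb among the short ones. That boundary gave 0.58 for short and 0.52 for long contacts. The EWS-FLI1 list had 0 genes higher with each chromosome or each 10 Mb window scaled to its own total, and 0 to 0 with 1 library left out, in place of 1. The 10 Mb window of the locus held under 3000 PETs of sparse pairs, so chromosome X as a whole was used there. These scalings moved the median of the tested pairs from -0.04 to 0.11 and 0.18.

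A replicate block, with numbers taken from the titles, gave 0.57 for the locus total, 1.36 for the short pair, 0.91 and 0.51 for the downstream and promoter anchors and 0.31 for the long pairs. Deviations of libraries with the same number correlated at r = 0.0053 over 60425 anchors, so the numbers were not taken as pairs. Among the 11872 pairs with at least 20 PETs, edgeR called 10 higher and 13 lower, 7 and 1 with library totals, and 9 and 1 with chromosomes scaled. DESeq2 called 0 and 0 (57 and 84 unadjusted). Among anchors edgeR called 225 and 304, and DESeq2 2 and 20. With 0 to 5 PETs per library, no change of a single long pair could be tested at this depth.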
